A study of Saccharomyces cerevisiae with 24 samples.

Results

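The small subunit of the yeast cytosolic ribosome is built on 18S ribosomal RNA from a set of proteins most of which are encoded by a pair of near-identical genes, named A and B. The genes described here are all those in the deposited files whose standard symbol is RPS followed by a number, together with ASC1, which encodes the RACK1-like protein of the subunit's head. Of 57 such genes in the R64 annotation, 27 were among the 4442 gene pairs in the files, and the other 30 were not analysed here. The 27 genes cover 19 of the 32 protein names of the annotation, and both copies were present for 7 proteins, among them RPS0, RPS4, RPS16, RPS19, RPS21 and RPS25.

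The small subunit binds messenger RNA and reads its codons in the decoding centre. It consists of a head, which carries the path of the transfer RNAs, and a body with a platform. In budding yeast the genes of its proteins are transcribed together as one regulon, driven by Rap1 with Fhl1, Ifh1 and Sfp1 and tuned to nutrients through TOR and protein kinase A. Yeast ribosomal protein genes carry introns far more often than other yeast genes, and 20 of the 27 genes here have one, against 3.93% of the gene pairs in the files that have a coding sequence.

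Messenger RNA was sequenced from 2 kinds of culture, with 12 libraries each. The hybrid was WL201, an a/alpha diploid from a cross of the laboratory strain BY4741 with RM11-1alpha, a derivative of a vineyard isolate. The co-culture held haploid cells of BY4741 and RM11-1a, both of mating type a, grown in a shared flask, so the groups differ in ploidy and mating type as well as in whether both alleles share a nucleus. BY4741 carries auxotrophic markers, and its MET17 allele had 0 reads in both groups. For each group 4 technical replicate cultures were grown from an OD600 of 0.1 to 1.0 at 30 °C and 250 rpm, and which library came from which culture is not stated, so p-values reflect the scatter of libraries alone, and that scatter may be technical. Libraries of a group that differed by no more than sampling noise were summed, which gave 6 summed replicates per group, more than the cultures.

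Hybrid libraries held 165503 to 232428 assigned reads and co-culture libraries 199838 to 227175. Of the 6 markers of MATa haploid cells 5 were in the files. Their summed level was 114 to 161 CPM (counts put on a common library size) in the hybrid, against 9720 to 10400 CPM in the co-culture, and the 2 of 4 MATalpha markers in the files summed to 4.93 to 15.9 CPM in the hybrid, against 0 to 13.4 CPM in the co-culture. The MATa levels move with the group in every comparison below, and their part in the results was not tested. The MATalpha levels overlapped between the groups, on 31 reads in the hybrid, against 20 in the co-culture. The BY allele held 50.1 to 50.5% of the reads of a hybrid library and 45.0 to 45.4% of those of a co-culture library.

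Only reads that cover a base at which the strains differ were counted, so a level depends on how many such sites a gene has, and levels of different genes are not comparable. Where in a gene these sites lie is not in the files. From here on CPM values are after TMM scaling, which sets most genes to no change. In a bulk culture, fewer cells with a transcript and less of it per cell cannot be told apart.

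The 27 genes together had 151513 reads in the hybrid, against 143920 in the co-culture. They made up 5.93% ± 0.105 of the assigned reads in the hybrid, against 5.58% ± 0.11 in the co-culture (SD, n = 6 summed replicates each). The summed replicates spanned 5.83 to 6.11% in the hybrid, against 5.49 to 5.74% in the co-culture, and the groups did not overlap. This share is on library size alone, a scale on which the median log2 fold of all tested genes was 0.12. The higher share is therefore not read as a rise of the set.

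The first question was how the level of each gene, over both alleles, differed between hybrid and co-culture. Of the 27 genes 20 had enough reads to be tested (on average at least 10 reads in each library of either group). By edgeR's quasi-likelihood test with Benjamini-Hochberg adjustment over all 2793 tested genes at a threshold of 0.05, 10 of the 20 rose in the hybrid, 5 fell and 5 did not pass. Of all tested genes 29.4% rose and 31.9% fell. The median log2 fold, hybrid over co-culture, was 0.26 over the 20 genes and 0.01 over all tested genes. RPS7A, RPS21A, RPS29A and RPS30B passed the read minimum only through the hybrid, where they had more reads, so their direction follows from the minimum. Of the 16 genes that met the minimum in both groups, 6 rose, 5 fell and 5 did not pass, with a median of -0.05. By library size alone, without TMM scaling, the median fold of all tested genes moved to 0.12, and 10 of the 20 genes rose and 4 fell, against 38.3% and 24.8% of all. The summed replicates of the groups did not overlap for 7 of the genes that rose and 2 of those that fell. Among all tested genes 14.1% were without overlap and higher in the hybrid, and 17.2% without overlap and lower. The 7 include RPS7A and RPS29A, whose direction follows from the minimum.

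**Figure D1:**
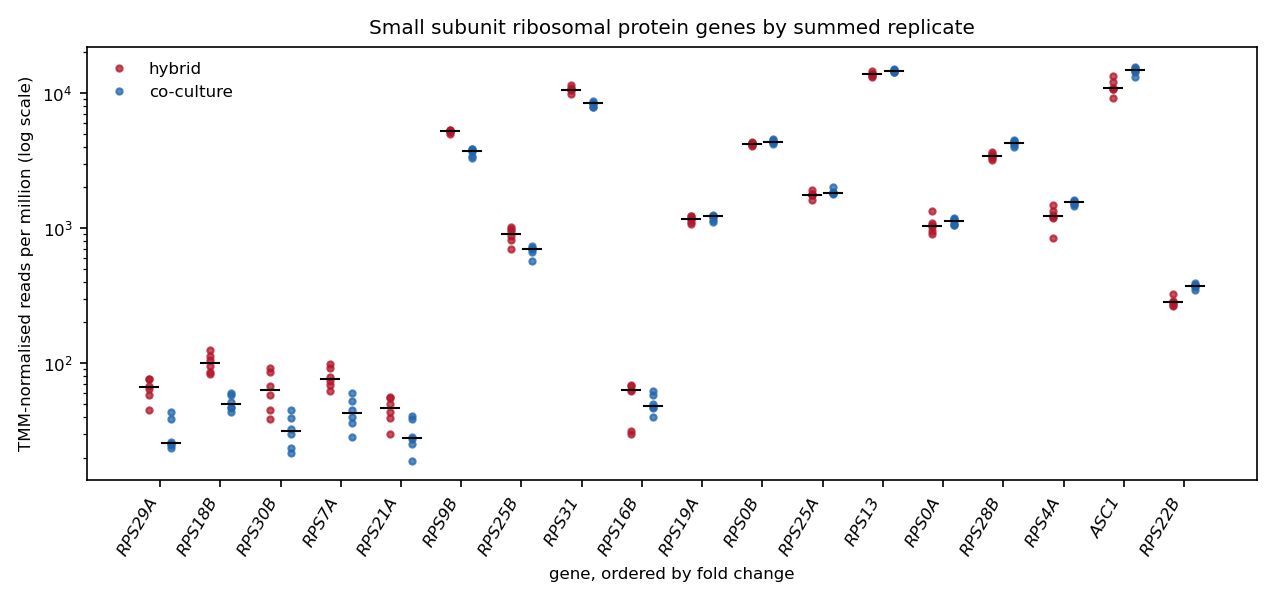
TMM-normalised CPM (log axis) of 18 tested genes in the 6 summed replicates of the hybrid (red) and of the co-culture (blue), with medians as black bars and genes ordered by fold change. RPS29A stands at 44.7 to 76.9 in the hybrid, against 23.7 to 43.1 in the co-culture at the left end, and RPS22B at 264 to 323 in the hybrid, against 349 to 394 in the co-culture at the right end.

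Among the proteins of the body and platform, 10 of 14 genes were tested, of which 5 rose, 3 fell and 2 did not pass. Over all tested genes 29.4% rose and 31.9% fell. The 5 include RPS7A, RPS21A and RPS30B, whose direction follows from the read minimum. RPS7A encodes a target of ubiquitination on the subunit. Its lowest, median and highest summed replicates stood at 62.5, 76.8 and 98.8 CPM in the hybrid, against 28.6, 42.5 and 60.1 CPM in the co-culture, and it rose by 0.79 (SE 0.18, edgeR adjusted p = 7.84e-05). All hybrid replicates were above all co-culture replicates, but RPS7A met the read minimum only through the hybrid, so its direction follows from that minimum.

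RPS9B, whose protein lies near the messenger RNA entry and affects decoding accuracy, was measured on 13494 reads in the hybrid, against 8711 in the co-culture. It stood at 4940, 5250 and 5330 CPM in the hybrid, all above the 3320, 3740 and 3860 CPM of the co-culture. The log2 fold was 0.52 (SE 0.04, edgeR adjusted p = 2.88e-19). RPS30B, a small protein of the body, had 38.8, 63.2 and 91.3 CPM in the hybrid, against 21.6, 31.2 and 45.1 CPM in the co-culture and rose by 0.82 (SE 0.21, edgeR adjusted p = 0.000618), with groups that overlapped. RPS21A, whose protein sits beside Rps0, had 29.8, 46.3 and 55.9 CPM in the hybrid, against 19.0, 28.0 and 40.7 CPM in the co-culture. Its groups also overlapped, and it rose by 0.59 (SE 0.21, edgeR adjusted p = 0.0121). Both RPS30B and RPS21A met the read minimum only through the hybrid, so their direction follows from that minimum.

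RPS22B fell most. Its intron contains the small nucleolar RNA gene SNR44. It stood at 264, 282 and 323 CPM in the hybrid, all below the 349, 375 and 394 CPM of the co-culture, with a log2 fold of -0.40 (SE 0.07, edgeR adjusted p = 3.06e-06). RPS4A stood at 846, 1230 and 1480 CPM in the hybrid, against 1450, 1550 and 1620 CPM in the co-culture, and fell by 0.33 on the log2 scale (SE 0.06, edgeR adjusted p = 6.82e-07). Its groups overlapped, because the highest hybrid replicate lay above the lowest of the co-culture.

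RPS13, a protein of the platform side that binds 18S RNA early in assembly, carried 35513 reads in the hybrid, against 35111 in the co-culture. Its levels were 13200, 13800 and 14500 CPM in the hybrid, against 14300, 14500 and 15100 CPM in the co-culture, and the groups overlapped. The log2 fold was -0.09 (SE 0.03, edgeR adjusted p = 0.0261). By library size alone the fold was 0.02. The call was lost without hybrid summed replicate 2, 3 or 6 and without any 1 of the co-culture summed replicates, with log2 folds of -0.10 to -0.06 over all 12 omissions. The 2 copies of RPS0, whose protein is needed for the last steps of 18S RNA maturation, did not pass. RPS0A stood at 899, 1030 and 1340 CPM in the hybrid, against 1050, 1120 and 1180 CPM in the co-culture (log2 fold -0.09, SE 0.06), and RPS0B at 4060, 4210 and 4320 CPM in the hybrid, against 4200, 4360 and 4550 CPM in the co-culture (log2 fold -0.06, SE 0.04). Without hybrid summed replicate 5, the highest of the hybrid, RPS0A passed as lower at -0.14 (edgeR adjusted p = 0.0121).

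Among the head proteins, 10 of 13 genes were tested, of which 5 rose, 2 fell and 3 did not pass. Over all tested genes 29.4% rose and 31.9% fell. RPS29A, a zinc-binding protein, had only 163 reads in the hybrid, against 76 in the co-culture. It stood at 44.7, 66.1 and 76.9 CPM in the hybrid, against 23.7, 25.5 and 43.1 CPM in the co-culture. The groups did not overlap, and the log2 fold was 1.00 (SE 0.20, edgeR adjusted p = 9.01e-06). This gene met the read minimum only through the hybrid, so its direction follows from that minimum. RPS18B, which reaches from the head towards the large subunit, stood at 82.8, 99.7 and 124 CPM in the hybrid, against 43.1, 49.6 and 59.7 CPM in the co-culture. It rose by 0.93 (SE 0.16, edgeR adjusted p = 4.72e-07) without overlap.

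RPS31 encodes ubiquitin fused to a ribosomal protein, which is split off after translation. It stood at 9810, 10600 and 11500 CPM in the hybrid, all above the 7810, 8380 and 8760 CPM of the co-culture (log2 fold 0.36, SE 0.04, edgeR adjusted p = 1.21e-13). RPS25B, a copy of a head protein known for its part in translation from viral internal entry sites, stood at 700, 910 and 1010 CPM in the hybrid, against 570, 702 and 740 CPM in the co-culture. These groups overlapped, and the log2 fold was 0.37 (SE 0.06, edgeR adjusted p = 6.43e-07).

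ASC1 was among the genes that fell. Its protein docks kinases and quality control factors at stalled ribosomes, and its intron contains the small nucleolar RNA gene SNR24. It stood at 9150, 10800 and 13400 CPM in the hybrid, against 13100, 14800 and 15600 CPM in the co-culture, and fell by 0.39 on the log2 scale (SE 0.05, edgeR adjusted p = 6.94e-12). The groups overlapped only where hybrid replicate 5, the highest of the hybrid, lay above co-culture replicate 1. RPS28B, whose yeast protein limits its own messenger RNA together with the decay factor Edc3, stood at 3180, 3420 and 3680 CPM in the hybrid, all below the 4010, 4290 and 4450 CPM of the co-culture. Its log2 fold was -0.32 (SE 0.04, edgeR adjusted p = 1.48e-10). RPS16B, with 29.8, 62.7 and 68.3 CPM in the hybrid, against 39.8, 48.4 and 62.3 CPM in the co-culture, did not pass (log2 fold 0.25, SE 0.18). Neither did RPS25A, with 1610, 1760 and 1920 CPM in the hybrid, against 1780, 1810 and 2010 CPM in the co-culture (-0.06, SE 0.05), nor RPS19A (-0.05, SE 0.05). The groups overlapped for each of these genes.

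The 7 genes below the read minimum included RPS4B, RPS10A, RPS16A, RPS19B, RPS21B and RPS26B. They had 17 to 118 reads over the hybrid libraries and 11 to 63 over the co-culture libraries, and all 7 had more reads in the hybrid. RPS26B, whose protein contacts the messenger RNA at the exit channel, had 91 reads in the hybrid, against 35 in the co-culture. With no read minimum 5 of the 7 also passed as higher, and RPS19B and RPS21B did not. Over the whole set 15 genes then rose and 4 fell, against 20.7% and 22.7% of all genes.

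The folds were also set against depth and base composition. Of the 7 tested genes with fewer than 1000 reads over all libraries, 4 met the read minimum only through the hybrid, where they had more reads by that rule, and they are left out here. The 3 that met it in both groups comprised 2 that rose and 0 that fell, too few to compare. The 13 with at least 1000 reads comprised 4 that rose and 5 that fell, with a median log2 fold of -0.06. Of all genes that met the minimum in both groups, 24.7% rose and 24% fell under 1000 reads, and 32.3% rose and 42.6% fell with at least 1000. Spearman's rho between log2 fold and reads, as a description across genes that share the same libraries, was -0.27 over these 16 small subunit genes, -0.19 over 34 genes of large subunit proteins and -0.08 over 2456 genes. With the genes that passed through 1 group included it was -0.57 over 20 small subunit genes, 4 of them with a direction that follows from the minimum.

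**Figure D2:**
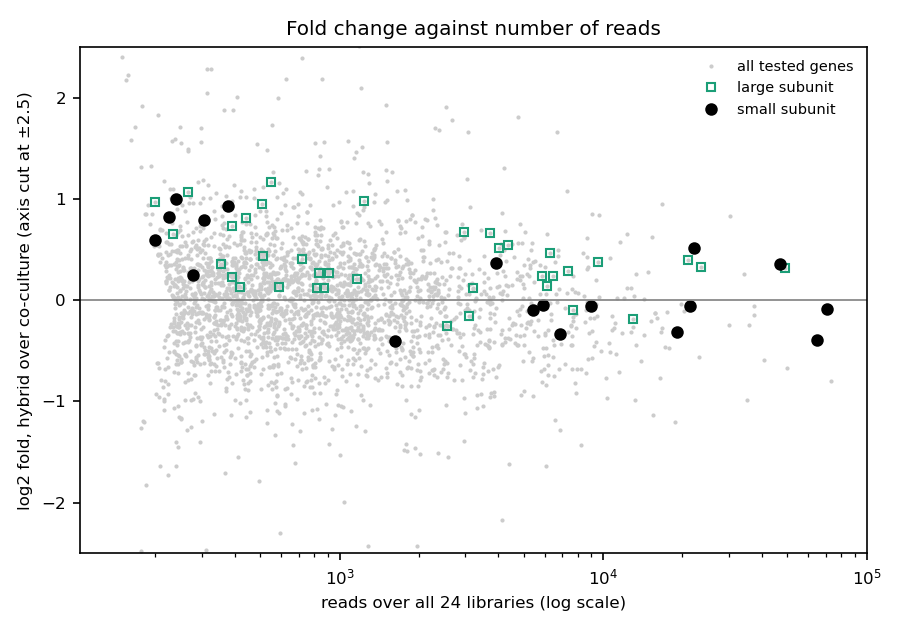
Log2 fold, hybrid over co-culture, against the number of reads over all 24 libraries (log axis), for the small subunit genes (black), large subunit genes (green squares) and all tested genes (grey). The small subunit genes drawn with under 1000 reads lie between 0.25 and 1.00, and those with at least 1000 reads between -0.40 and 0.52. The former include RPS7A, RPS21A, RPS29A and RPS30B, which met the read minimum only through the hybrid, so their direction follows from that minimum.

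The share of adenine in the coding sequence varied between 24.27% (ASC1) and 37.42% (RPS10A) over the 27 genes, with a median of 30.11% against 32.8% over the gene pairs in the files. Across genes the log2 fold went with this share, with a Spearman's rho of 0.63 over the 20 genes, 0.65 over the 16 that met the read minimum in both groups and 0.55 over the 2780 tested genes that have a coding sequence. The trend of fold against A share over all genes was then removed. With it removed, 17 of the 20 small subunit genes rose and 0 fell, against 26.9% of all genes that rose and 25.8% that fell. The 17 include RPS7A, RPS21A, RPS29A and RPS30B, whose direction follows from the read minimum. The direction then turned for ASC1 (0.20), RPS28B (0.23) and RPS13 (0.23), which had fallen, and RPS4A (-0.06) and RPS22B (-0.13) no longer passed. RPS0A (0.21), RPS0B (0.28), RPS16B (0.53) and RPS19A (0.16), which had not passed, did so as higher. The fold of RPS29A was 1.18 with the trend removed. The part of base composition in the falls was not tested beyond this.

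**Figure D3:**
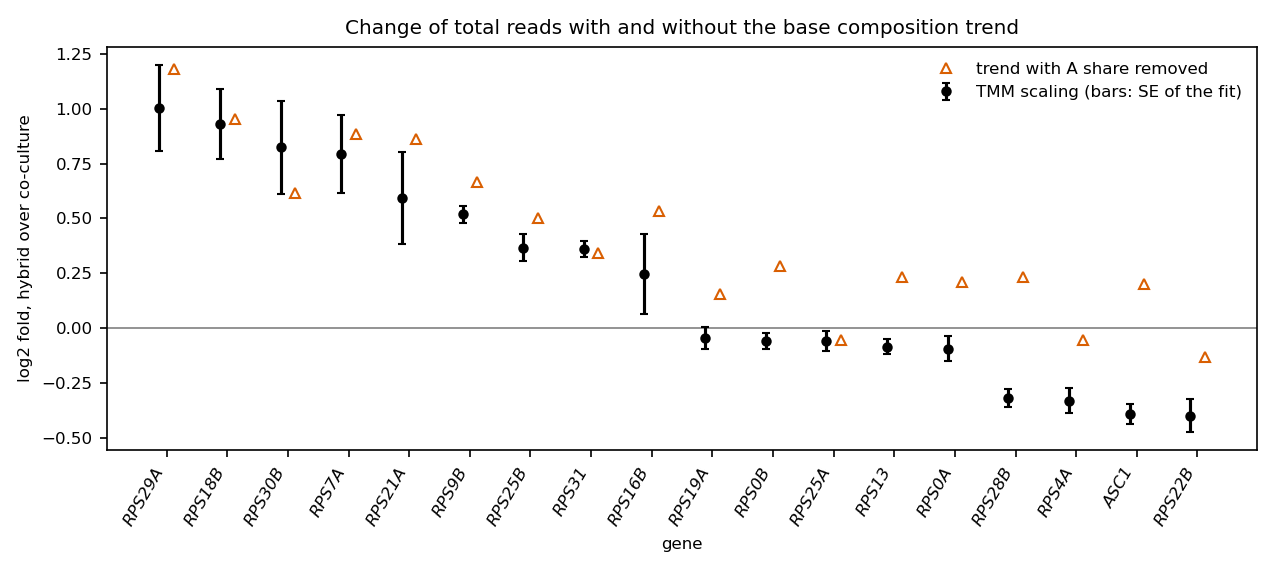
Log2 fold, hybrid over co-culture, of 18 tested genes after TMM scaling (black, bars are the SE of the fit) and with the trend against the adenine share of the coding sequence removed (open triangles). ASC1 lies at -0.39 after TMM scaling and at 0.20 with the trend removed, and RPS29A at 1.00 and 1.18 in the same order. The direction of RPS7A, RPS21A, RPS29A and RPS30B follows from the read minimum.

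Of 14 tested genes with an intron 6 rose and 4 fell, with a median log2 fold of 0.10. Of 6 without one 4 rose and 1 fell, with a median of 0.32. Over all tested genes 29.4% rose and 31.9% fell. The rises include RPS7A, RPS21A and RPS30B with an intron and RPS29A without one, whose direction follows from the read minimum. The difference between genes with and without an intron was not tested. In the 500 bases before the start codon, 11 of the 27 genes (40.74%) had a match to the Rap1 core ACCCNNACA on either strand, against 5.46% of 6006 promoters of the same length in the R64 genome. The Fhl1-type motif GACGCA was in 11.11% against 10.96%, and the core motif of Abf1 in 25.93% against 22.68%. The AAAATTT core known as RRPE was in 44.44% against 34.07%, the PAC core GATGAG in 25.93% against 28.22%, and a run of TTTTTT on the sense strand in 74.07% against 60.99%. Some matches of AAAATTT can overlap runs of T.

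Promoter stretches of 3 genes are shown, with Rap1 matches in capitals. The genes were called higher (RPS7A), not called (RPS0A) and called lower (RPS13). They do not stand for kinds of response, since the direction of RPS7A follows from the read minimum. The call of RPS13 was lost in 9 of 12 omissions of a summed replicate. The stretches are from the S288C reference genome (R64), matched by locus tag and written on the gene's strand, which is the forward strand for each.
RPS7A: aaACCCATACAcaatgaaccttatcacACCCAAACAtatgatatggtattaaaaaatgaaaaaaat
RPS0A: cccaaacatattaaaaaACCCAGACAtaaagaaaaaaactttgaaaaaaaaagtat
RPS13: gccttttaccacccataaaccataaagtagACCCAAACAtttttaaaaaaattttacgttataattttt
The RPS7A stretch, on chromosome XV, ends 434 bases before the start codon and holds 2 matches. Those of RPS0A on chromosome VII and RPS13 on chromosome IV end 444 and 191 bases before it and hold 1 match each. Of the 7 tested genes with a Rap1 match 3 rose and 1 fell, and of the 13 without a match 7 rose and 4 fell. Over all tested genes 29.4% rose and 31.9% fell. The rises include RPS7A with a match and RPS21A, RPS29A and RPS30B without one, whose direction follows from the read minimum. A match is a string of letters and not a measured binding site.

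The other genes of small subunit production were taken from lists, whose counts stand against the 29.4% of all tested genes that rose and the 31.9% that fell. The genes named from each list are those with the smallest p, not the largest folds. A listed gene could be tested by meeting the read minimum in the hybrid or the co-culture alone. Its direction then follows from that minimum. How many did so is given here only for the large subunit genes. Of 49 tested small subunit assembly factors 43 rose, 0 fell and 6 did not pass, with a median log2 fold of 0.62. The processome component UTP14 averaged 758 ± 62.9 CPM in the hybrid, against 111 ± 12.6 CPM in the co-culture (SD, n = 6 summed replicates each), and SAS10, another component, 394 ± 52.0 CPM in the hybrid, against 55.6 ± 11.9 CPM in the co-culture. LTV1, which holds back late assembly of the head, averaged 822 ± 45.4 CPM in the hybrid, against 239 ± 25.6 CPM in the co-culture. The log2 folds of all 3 passed, at 2.76 for UTP14, 2.83 for SAS10 and 1.78 for LTV1.

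Of 37 tested large subunit protein genes 26 rose and 2 fell, with a median of 0.32, among them RPL7B (0.98), RPL13A (0.66) and RPP1A (0.40). Of these 37 genes, 34 met the read minimum in both groups, and the direction of the others follows from that minimum. Of 17 genes listed as regulators of ribosomal protein genes 8 rose and 1 fell (median 0.15), among them TOD6 (0.84), the general factor ABF1 (0.36) and the coactivator IFH1 (0.58). Of 16 factors that dock on the small subunit 8 rose and 1 fell (median 0.23), including TMA46 (1.25) and the initiation factor genes TIF11 (0.65) and FUN12 (1.73). Of 10 dedicated chaperones and modifiers of small subunit proteins 6 rose and 0 fell (median 0.29), among them LTV1, TSR2 (0.75), the chaperone of Rps26, and NAP1 (0.32). The lists share members, such as LTV1.

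The second question was how the RM and BY alleles of each gene differed within a shared nucleus and between the strains. In the hybrid both alleles meet the same cellular environment, so a difference there is taken as one in cis. How reads were aligned is not given in the sources used here, and whether it favoured an allele was not tested. In the co-culture each allele is read in its own strain. A gene pair was tested if its alleles together had at least 100 reads in the hybrid and as many in the co-culture, which 17 of the 27 genes did. Ratios are RM over BY on the log2 scale, after TMM scaling of each allele column, which puts the ratio of most gene pairs near 1.

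In the hybrid, RM was higher for 4 of the 17 genes (10.4% of all 2661 tested gene pairs), BY was higher for 5 (9.7% of all), and 8 did not pass by edgeR's quasi-likelihood test with Benjamini-Hochberg adjustment. The 4 included RPS0A, RPS25B and RPS4A, and the 5 included RPS28B, RPS31, RPS0B and RPS13. In the co-culture RM was higher for 10 (21.8% of all), BY for 3 (18.5% of all), and 4 did not pass. The 10 included, in falling order of the ratio, RPS0A, RPS22B (0.48), RPS4A, RPS19A (0.32), ASC1, RPS25B, RPS13, RPS9B (0.12) and RPS28B, and the 3 included RPS31 and RPS25A. The median ratio was 0.03 in the hybrid, against 0.14 in the co-culture over the 17 genes. Over all tested gene pairs it was 0.00 in the hybrid, against 0.01 in the co-culture. By library size alone, without TMM scaling, RM was higher for 7 and BY for 4 in the co-culture, where 17.6% and 23.4% of all gene pairs passed. RPS9B (0.047), RPS25B (0.154) and RPS28B (0.046) no longer passed on that scale.

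RM was above BY in all 6 summed replicates of each group for RPS0A. Its lowest, median and highest log2 ratios were 0.34, 0.48 and 0.73 in the hybrid, against 0.46, 0.52 and 0.66 in the co-culture, fitted at 0.47 (SE 0.06) in the hybrid and 0.53 (SE 0.06) in the co-culture. The second RPS0 copy went the other way in the hybrid. RPS0B had BY above RM in all 6 hybrid replicates, at 3880 ± 58.9 CPM for RM and 4610 ± 185 CPM for BY, a fitted ratio of -0.24 (SE 0.03, edgeR adjusted p = 4.65e-15), and -0.05 (SE 0.03), which did not pass, in the co-culture. RPS0B passed there at -0.08 without hybrid summed replicate 1, 3 or 6, which share the fit. It also passed by library size alone (-0.129, edgeR adjusted p = 4.89e-05), with upper quartile scaling (-0.093) and with 12 unsummed libraries (-0.077).

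RPS4A, with 0.23 (SE 0.05) in the hybrid, against 0.39 (SE 0.05) in the co-culture, and RPS25B, with 0.25 (SE 0.06) in the hybrid, against 0.23 (SE 0.07) in the co-culture, had RM higher in all replicates of both groups. The hybrid call of RPS25B was lost without hybrid summed replicate 4 (0.18, edgeR adjusted p = 0.0952). RPS31 had BY higher in all replicates of both groups, at -0.30 (SE 0.02) in the hybrid, against -0.17 (SE 0.02) in the co-culture. RPS25A passed in the co-culture at -0.11 (SE 0.05, edgeR adjusted p = 0.0438). This was lost without co-culture summed replicate 1, 2, 3 or 5, at -0.11 to -0.09. By library size alone RPS25A passed there at -0.183 (edgeR adjusted p = 0.000178), and RPS25B did not pass (0.154, edgeR adjusted p = 0.081). DESeq2 did not call RPS25B in the hybrid, nor RPS25A and RPS25B in the co-culture.

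The third question was whether the ratio itself differed between the groups. The difference, hybrid minus co-culture, is the negative of what is usually called the trans effect. It was negative for 9 of the 17 genes and positive for 0, and 8 did not pass, against 12% of all tested gene pairs that were negative and 8.76% that were positive. Thus in 9 genes RM was lower relative to BY in the hybrid than in the co-culture. At an unadjusted p under 0.05 the difference was negative for 10 and positive for 0. The median difference was -0.17 over the 17 genes and -0.01 over all. Scaling matters here, since by library size alone the median of all gene pairs moved to 0.09, with 13.3% of all positive and 8.53% negative. Then 3 of the 17 genes were negative and 0 positive, namely RPS28B (-0.43), ASC1 (-0.19) and RPS13 (-0.13). With DESeq2 the differences of RPS19A (-0.25) and RPS22B (-0.41) did not pass. The replicate ratios of the groups did not overlap for 7 genes, all lower in the hybrid, against 6.01% of all gene pairs without overlap and lower and 2.86% without overlap and higher.

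**Figure D4:**
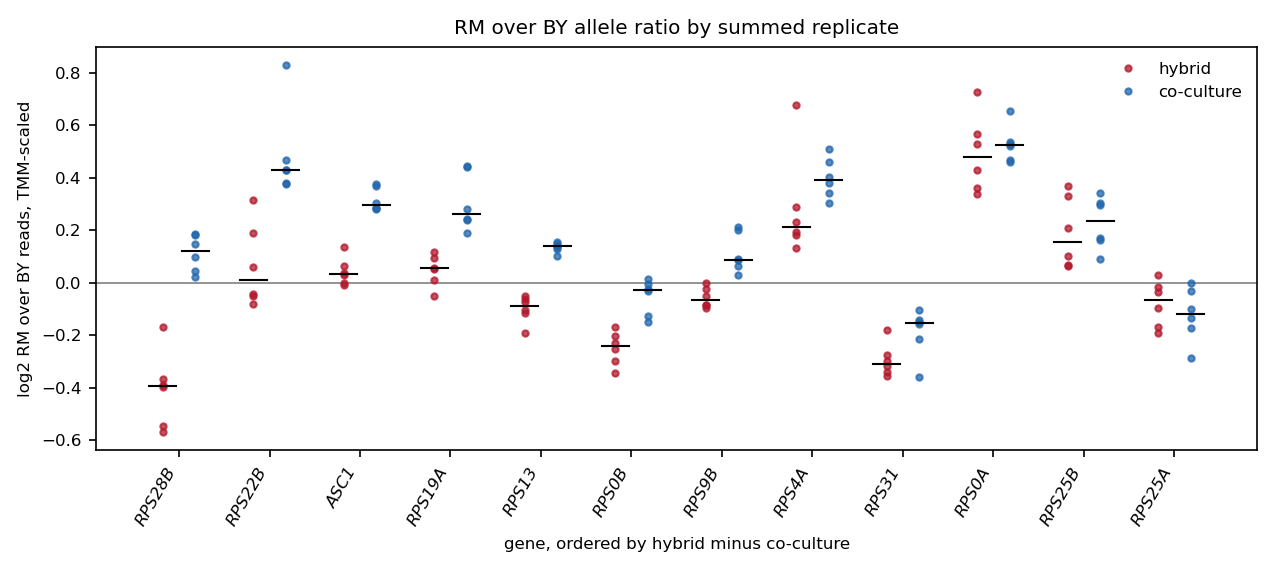
Log2 ratio of RM over BY reads after TMM scaling in the 6 summed replicates of the hybrid (red) and of the co-culture (blue), with medians as black bars, for 12 genes that passed at least 1 allelic test. RPS28B, at the left, lies between -0.57 and -0.17 in the hybrid and between 0.02 and 0.19 in the co-culture.

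RPS28B had the largest difference and, after TMM scaling, changed sides. By library size alone its hybrid ratio of -0.382 passed, but its co-culture ratio of 0.046 did not (edgeR adjusted p = 0.208). Its RM and BY alleles averaged 2970 ± 57.6 and 3950 ± 396 CPM in the hybrid, and 4450 ± 176 and 4120 ± 199 CPM in the co-culture (SD, n = 6 summed replicates each). BY was higher in all 6 hybrid replicates and RM in all 6 co-culture replicates, with fitted ratios of -0.40 (SE 0.03) in the hybrid and 0.12 (SE 0.03) in the co-culture, and a difference of -0.52 (SE 0.04, edgeR adjusted p = 3.34e-31). RPS13 was the only other gene that passed in both groups with opposite signs, out of 8 genes that passed in both. Its ratios were -0.19, -0.09 and -0.05 in the hybrid, against 0.10, 0.14 and 0.16 in the co-culture, and they differed by -0.23 (SE 0.02, edgeR adjusted p = 1.69e-20).

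ASC1 had 14595 RM and 14342 BY reads in the hybrid, a ratio of 0.03 (SE 0.02) that did not pass. RM was higher in the co-culture, with 20986 RM and 14644 BY reads and a ratio of 0.31 (SE 0.02, edgeR adjusted p = 3.09e-74). The replicate ratios were -0.01, 0.03 and 0.14 in the hybrid, against 0.28, 0.30 and 0.38 in the co-culture. They did not overlap, and differed by -0.28 (SE 0.03, edgeR adjusted p = 4.18e-28). RPS19A, which encodes a head protein needed for 18S RNA maturation, had ratios of -0.05, 0.06 and 0.12 in the hybrid, against 0.19, 0.26 and 0.45 in the co-culture, a difference of -0.26 (SE 0.08, edgeR adjusted p = 0.00755). RPS22B had -0.08, 0.01 and 0.32 in the hybrid, against 0.38, 0.43 and 0.83 in the co-culture, a difference of -0.42 (SE 0.15, edgeR adjusted p = 0.027). This call rests on 370 RM and 356 BY reads in the hybrid, against 554 RM and 343 BY reads in the co-culture. It was lost without hybrid summed replicate 3 or 4 (-0.38 each) or co-culture summed replicate 6 (-0.36), and also without hybrid libraries 1 and 9 (-0.39), the pair that differed most from each other.

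The ratios of RPS0B (-0.19, SE 0.04), RPS9B (-0.19, SE 0.04) and RPS31 (-0.13, SE 0.03) also passed as lower in the hybrid. Those of RPS31 overlapped between groups, and those of RPS0B and RPS9B did not. RPS4A (-0.17, SE 0.07, edgeR adjusted p = 0.0903) and RPS0A (-0.06, SE 0.08) did not pass. By position, 5 of 9 tested head genes and 4 of 8 tested body and platform genes had a lower ratio in the hybrid. Over all tested gene pairs 12% did. RPS7A, RPS16B and RPS18B passed no allelic test, and with SE of 0.18 to 0.28 on each ratio, differences of the size seen in RPS13 were not detectable at their depth.

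Among the comparison lists, counts stand against the 12% of all gene pairs with a negative and the 8.76% with a positive difference. That difference was negative for 11 of 34 large subunit genes and positive for 1, with a median of -0.14. The difference was negative for 8 and positive for 0 of 41 assembly factors (median -0.19), negative for 3 and positive for 1 of 17 regulators (-0.13), negative for 2 and positive for 0 of 15 docking factors (-0.18), and negative for 0 and positive for 1 of 9 chaperones and modifiers (-0.10). The counts of the regulators, docking factors and chaperones lie near those shares and say little about these lists. By library size alone the medians were -0.05 for the large subunit genes, -0.10 for the assembly factors and -0.07 for the small subunit genes.

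Copies A and B of a protein were compared last. A read can be assigned to a copy only where the copies differ, and no source used here says how reads that fit both copies were counted. The value of either copy is therefore uncertain. Coding identity between the copies in the R64 genome was 90.29% for RPS0, 98.09% for RPS4, 93.52% for RPS16, 95.17% for RPS19, 90.91% for RPS21 and 92.35% for RPS25. Coding stretches of 60 bases are shown for the most alike pair and for a pair whose copies were both well covered, with the bases that differ between the copies in capitals.
RPS4A: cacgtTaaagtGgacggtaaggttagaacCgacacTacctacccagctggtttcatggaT
RPS4B: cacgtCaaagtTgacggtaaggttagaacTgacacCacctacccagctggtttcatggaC
RPS25A: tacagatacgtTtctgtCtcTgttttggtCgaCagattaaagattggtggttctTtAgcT
RPS25B: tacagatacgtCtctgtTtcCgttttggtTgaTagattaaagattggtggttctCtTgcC
The RPS4 stretches are coding bases 205 to 264, on the reverse strands of chromosomes X (RPS4A) and VIII (RPS4B), and differ at 5 positions. They come from a pair with 15 differing positions in all, whose longest identical run is 158 bases. The RPS25 stretches are coding bases 169 to 228, on the reverse strands of chromosomes VII (RPS25A) and XII (RPS25B), and differ at 8 positions.

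Reads were shared unevenly between copies. RPS4A had 3177 reads in the hybrid, against 3714 in the co-culture, whereas RPS4B had 29 in the hybrid, against 11 in the co-culture. RPS19A had 3019 in the hybrid, against 2914 in the co-culture, and RPS19B 17 in the hybrid, against 13 in the co-culture. Since sites that differ between the strains set these numbers, an A-over-B ratio is no ratio of messenger RNA levels, and only its difference between groups is read.

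Copies had at least 60 reads each in both groups for 3 of the RPS pairs, among 13 tested pairs of genes in the files named A and B. By a 2-sided exact permutation test over summed replicates (924 splits), 0 of the 13 passed after Benjamini-Hochberg adjustment, or 0.0%, and 4 of the 13 had an unadjusted p under 0.05, among them RPS25 and RPS16. For RPS25 the lowest, median and highest log2 A-over-B ratios were 0.71, 0.96 and 1.45 in the hybrid, against 1.29, 1.36 and 1.66 in the co-culture. The groups overlapped, and the means were 1.00 ± 0.27 in the hybrid, against 1.44 ± 0.16 in the co-culture (SD, n = 6 summed replicates each, difference -0.44, exact permutation p = 0.0108, adjusted p = 0.0703). Without hybrid summed replicate 5, the highest of the hybrid, the difference was -0.53 with an adjusted p = 0.0281 by the exact permutation test.

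For RPS16, whose protein's tail reaches the transfer RNA in the decoding site, the ratios were -0.83, -0.09 and 0.62 in the hybrid, against -2.10, -1.07 and -0.34 in the co-culture. The groups overlapped, and the difference was 0.92 (exact permutation p = 0.0238, adjusted p = 0.0774), on 118 RPS16A and 156 RPS16B reads in the hybrid, against 63 and 122 in the co-culture. For RPS0 the ratios were -2.24, -2.02 and -1.69 in the hybrid, against -2.05, -1.97 and -1.90 in the co-culture, with a difference of -0.04 (exact permutation p = 0.68, adjusted p = 0.884).

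**Figure D5:**
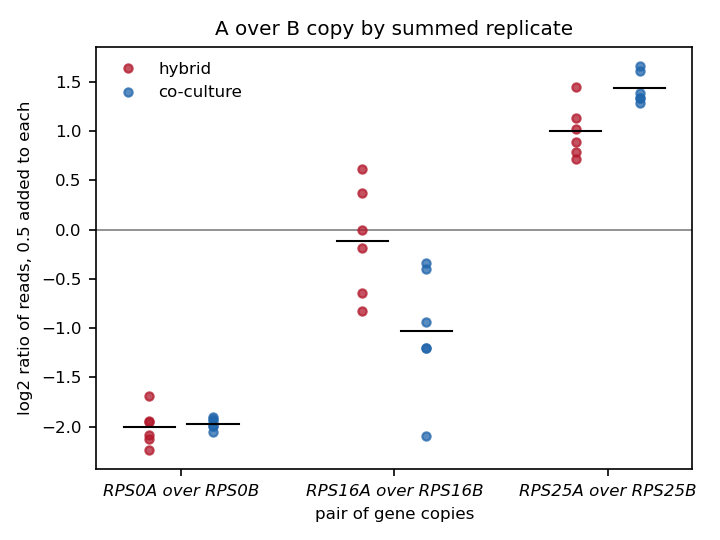
Log2 ratio of A over B reads, with 0.5 added to each, in the 6 summed replicates of the hybrid (red) and of the co-culture (blue), with means as black bars, for the 3 pairs with enough reads. RPS25 averages 1.00 in the hybrid, against 1.44 in the co-culture, RPS16 averages -0.11 in the hybrid, against -1.03 in the co-culture, and RPS0 -2.0 in the hybrid, against -1.97 in the co-culture.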

How the data were processed

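Complementary DNA of oligo-dT selected RNA was sequenced, per the labels' protocols. The values are raw counts of reads that cover a base at which BY and RM differ, deposited by the authors per allele and gene pair, with no normalisation, per the file headers. No aligner, read filter or genome build is named (not given in the sources used here). Genes were named by locus tag from RefSeq R64, which also supplied the sequences.

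The members, lists and tests were chosen with earlier results of these data known. Libraries of a group were summed by complete linkage where a chi-square test over allele columns with at least 20 reads gave p of at least 0.05. Of 66 pairs in each group, 16 of the hybrid, against 20 of the co-culture, reached that p, and 38 of the hybrid, against 16 of the co-culture, had p under 0.001. Some pairs that reached it lie in different summed replicates, since every pair within one had to. In the hybrid this gave libraries 1, 2, 3 and 5, 4 and 6 to 8, 9, and 10 to 12 as summed replicates 1 to 6, and in the co-culture libraries 1, 2 to 4, 5 and 6, 7 and 8, 9 and 12, and 10 and 11.

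Totals and allele columns were tested over the whole table with the quasi-likelihood test of edgeR 4.0.16 (R 4.3.3), with TMM scaling and Benjamini-Hochberg adjustment at 0.05. The allelic fit was joint, with the summed library as a block. Log2 folds carry the SE of the fit. A-over-B ratios had 0.5 reads added and were tested by exact permutation (Python 3.11.15, scipy 1.17.1). The scripts were tested on simulated data. The A-share trend was a loess fit (span 0.75). DESeq2 1.42.0, upper quartile scaling, library size alone, TMM without ribosomal protein genes, no read minimum, unsummed libraries, a replicate block and omission of each summed replicate were alternatives. The naming rule took the 6 largest called members in each direction, ASC1, tested gene copies and 3 genes with the smallest p of each other list; RPS9B and RPS31 totals were added after their values were seen. Assignment of genes to head or body and the split at 1000 reads were also made then. Values of some genes are not reported here, although they stay in the fits and counts.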

Additional observations from a re-analysis of the deposited data

Results flagged for a closer look

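In 3 of 72 checked groups of 6 values a summed replicate lay far from the others of its group, and chance alone marks about 1 in 20 such groups. RPS25A stood at 2010 CPM in co-culture summed replicate 5, against 1778 to 1833 CPM in the other 5. The log2 RM-over-BY ratio of RPS4A was 0.676 in hybrid summed replicate 1, against 0.133 to 0.289 in the others. That of RPS22B was 0.83 in co-culture summed replicate 6, against 0.378 to 0.469 in the others. The difference of RPS22B between groups was -0.36 without that replicate and no longer passed.

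The RM-over-BY ratio differed between hybrid and co-culture by edgeR's test of the difference itself for 9 genes, of which 8 are given. The differences, hybrid minus co-culture on the log2 scale, were -0.522 for RPS28B, -0.424 for RPS22B, -0.282 for ASC1, -0.257 for RPS19A, -0.227 for RPS13, -0.188 for RPS0B, -0.185 for RPS9B and -0.127 for RPS31.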

How the results depend on the processing

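Leaving out each summed replicate in turn gave 10 to 11 genes higher and 4 to 6 lower in the hybrid, 3 to 4 with RM and 4 to 5 with BY higher in the hybrid, and 10 with RM and 1 to 4 with BY higher in the co-culture, the 1 without co-culture summed replicate 5. The ratio was lower in the hybrid for 8 to 9 genes and higher for 0. Of the A-over-B ratios 0 to 1 passed. Shares over all genes are not given for the omissions, so these counts show only how stable the calls are. In the main fit 29.4% of all tested genes rose and 31.9% fell. RM was higher for 10.4% of gene pairs and BY for 9.7% in the hybrid, and for 21.8% and 18.5% in the co-culture. The ratio was lower in the hybrid for 12%. The genes that rose include RPS7A, RPS29A and RPS30B, and RPS21A where tested, whose direction follows from the read minimum. With the A-share trend removed, 17 genes rose and 0 fell, against 26.9% and 25.8% of all genes. The 17 include RPS7A, RPS21A, RPS29A and RPS30B, whose direction follows from the read minimum. The folds of ASC1 (0.199), RPS0A (0.209), RPS0B (0.284), RPS13 (0.233), RPS19A (0.157) and RPS28B (0.232) then turned positive. By library size alone, 3 ratios were lower in the hybrid, against 8.53% of all gene pairs. On that scale the signs turned for the folds of RPS0A (0.015), RPS0B (0.052), RPS13 (0.023), RPS19A (0.063) and RPS25A (0.049) and the ratio difference of RPS0A (0.032), none of which passed. Without a read minimum the ratio difference of RPS25B was -0.003. Over omissions it spanned -0.044 to 0.056, the hybrid ratio of RPS22B -0.005 to 0.102 and the RPS0 A-over-B difference -0.099 to 0.011. With DESeq2 the ratio differences of RPS19A (-0.245) and RPS22B (-0.409) did not pass.

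Replicate numbers are shared between groups only as numbers, since same-numbered libraries correlated at -0.028 to 0.0631 in their deviations from the group means and 1 of 12 hybrid libraries correlated best with its own number. With 12 unsummed libraries and a replicate block, 10 genes rose and 6 fell, and 9 ratios were lower in the hybrid. Shares over all genes are not given for this setting. The A-over-B ratio of RPS25 passed there as lower (1 pair, -0.417, exact permutation adjusted p = 0.00317). Without the block it also passed (1 pair, adjusted p = 0.00117). The RPS16 difference could not be fitted without any 1 of the co-culture summed replicates, and the fold of RPS21A without hybrid summed replicate 4, because reads fell under the minimum. Genes under 1000 reads carry the widest errors, and the sites behind the counts are unknown.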
